A study of Mus musculus with 6 samples.

Results

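The genes of the MEF2 transcription factors (Mef2a, Mef2b, Mef2c, Mef2d) and of the class IIa histone deacetylases that bind them (Hdac4, Hdac5, Hdac7, Hdac9) were examined in the chromatin of mouse ventricular cardiomyocyte nuclei. The 8 genes are all members of both families, taken by name from 21887 protein-coding genes, and a peak was assigned to a gene when it overlapped the RefSeq gene body or the 20 kb on either side (the gene's window, mm10). The assay was CUT&RUN for acetylation of histone H3 at lysine 27 (H3K27ac), in which an antibody guides a nuclease to the marked chromatin and the released DNA is sequenced. Left ventricles of FVB mice, 8 to 12 weeks old, were the source of the nuclei, which were sorted with an antibody to PCM-1, found on cardiomyocyte nuclei. Of the 6 libraries, 3 were wild type (WT) and 3 came from mice with the Nppa-Nppb locus deleted by CRISPR (HOM), which removes the genes of the atrial and B-type natriuretic peptides. The shared protocol text also names Myh6-MerCreMer, nTnG and Sun1/sfGFP mice kept on FVB/N, and the labels do not say whether any of these 6 libraries carry those alleles. The labels do not tie libraries to separate mice. A p-value therefore only sets the difference between genotypes against other assignments of these same libraries, and their spread may be technical.

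MEF2 proteins bind an A and T rich element and activate muscle genes, and class IIa deacetylases bind MEF2 on chromatin and repress it. Kinases such as CaMKII and protein kinase D phosphorylate the deacetylases, 14-3-3 proteins then carry them out of the nucleus, and MEF2 is released; in the mouse heart this switch has long been studied in hypertrophy, where the natriuretic peptide genes are among the induced genes. H3K27ac marks active promoters and enhancers, so the data show where acetylated chromatin was called around these genes, not how much of their RNA or protein was present.

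The lists differed widely in length within each genotype. WT replicates 1, 2 and 3 had 21340, 72362 and 106605 peaks, and HOM replicates 1, 2 and 3 had 48102, 1462 and 15184. HOM replicate 2 stood apart, with a median peak width of 84 bp against 232 to 291 bp in the other libraries, and the comparison of genotypes at each of the 8 genes is given with and without it. Covered length genome wide ran from 0.296 Mb in HOM replicate 2 to 55.7 Mb in WT replicate 3. The windows of 10 of 10 cardiomyocyte marker genes held a peak in each of the other 5 libraries and of 0 in HOM replicate 2. Peaks on the gene itself were called for 7, 10 and 10 of these 10 markers in WT replicates 1, 2 and 3 against 10, 0 and 7 in the HOM libraries. Such peaks were called for 0 of 8 fibroblast markers in any library. They were called for 1, 4 and 6 of 10 endothelial markers in WT against 3, 0 and 1 in HOM. Cdh5, Tie1, Emcn and Vwf had none in any library. Pecam1 had 2, 3 and 4 such peaks in WT against 1, 0 and 1 in HOM. Erg, Flt1, Kdr, Tek and Egfl7 had such peaks in WT replicate 3, and fewer of them did in the other libraries. For smooth muscle and pericyte markers the counts were 0, 5 and 5 of 8 in WT against 2, 0 and 2 in HOM. For immune markers they were 0, 2 and 3 of 8 against 1, 0 and 0. With the 20 kb flanks the counts were as high or higher. They were 2, 6 and 7 against 4, 1 and 2 for endothelial markers and 4, 6 and 7 against 5, 0 and 2 for smooth muscle. Immune markers had 2, 5 and 5 against 5, 0 and 2, and fibroblast markers 0, 1 and 3 against 1, 0 and 0. The shares over all genes are given below. The mean share of an endothelial marker gene under peaks was at most 0.88% in any library. That mean was at most 37.3% for cardiomyocyte markers, 23.3% for the 8 genes described here and 5.17% over all protein-coding genes. In sorted nuclei, fewer nuclei carrying a mark and less mark per nucleus cannot be told apart.

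Acetylated chromatin was called around most of the 8 genes in 5 of the 6 libraries, and its extent differed widely between the paralogs. A peak lay in the windows of 7, 8 and 8 of the 8 genes in WT replicates 1, 2 and 3 and of 8, 2 and 7 in HOM replicates 1, 2 and 3. Over all protein-coding genes the share of windows with a peak was 31.7, 57.4 and 66.1% in the WT libraries and 47.1, 3.14 and 25.2% in the HOM libraries. A peak lay on the gene itself for 7 of the 8 in every library but HOM replicate 2, where it did for 1, while over all genes that share was 17.5, 37.1 and 48.1% in WT against 28.3, 1.74 and 13.8% in HOM. A longer window has more room for a peak, and 7 of the 8 windows were longer than the median of all genes, 57.2 kb, so the percent of the window under peaks is used below. On that measure Mef2d was highest and Mef2b lowest of the 8 by the WT mean. The mean percent covered over the WT libraries was 30.2 ± 21.1 (SD, n = 3) for Mef2d, 15.8 ± 11.4 for Hdac4, 10.8 ± 7.33 for Hdac5, 8.66 ± 6.18 for Mef2c, 8.21 ± 7.57 for Mef2a, 7.15 ± 5.3 for Hdac7, 3.04 ± 2.47 for Hdac9 and 2.81 ± 2.47 for Mef2b. Neighbours in this order did not differ beyond these SDs, which carry the differing list lengths. Within each library, however, Mef2d was the highest of the 8, and Hdac4 came second in 4 libraries. Among all protein-coding genes of the same library, the percentile of the percent covered ran, over the 5 libraries other than HOM replicate 2, from 96.7 to 98.6 for Hdac4, 94.3 to 97 for Hdac5, 91.4 to 94.4 for Mef2c, 89.1 to 93.8 for Hdac7, 85.1 to 94.1 for Mef2a and 77.5 to 82.7 for Hdac9, while Mef2b lay between 34.1 and 82.9. The median over the 8 genes was 8.43%, beside 0.528% over all protein-coding genes and 10.7% over the cardiomyocyte markers.

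**Figure D1:**
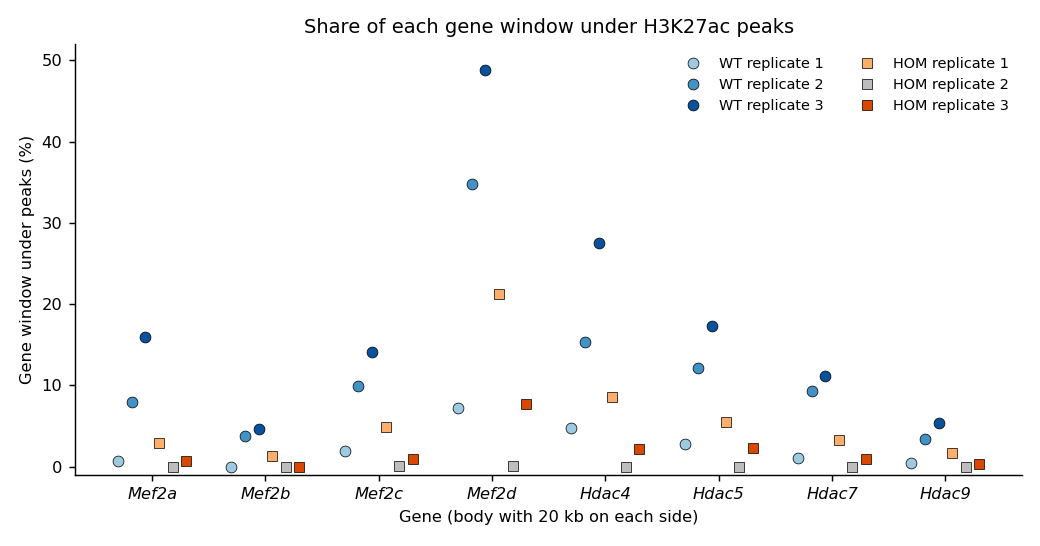
Percent of each gene's window (gene body with 20 kb on each side) under H3K27ac peaks in each library, on a linear axis, with circles for WT and squares for HOM. Mef2d reached 48.8% in WT replicate 3 and was the highest of the 8 genes in every library, while HOM replicate 2 lay at or near 0 for all of them.

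The start sites show how differently the paralogs were marked. Whether sequence relates to the marking was not tested, and 6 promoter sequences, of Mef2a, Hdac5, Mef2c and Hdac9, are printed. They come from RefSeq (GRCm38.p6, the assembly of mm10) and run 5′ to 3′ on the gene's strand from 250 bases before the start site through its first 30 bases. The start site is counted as base 1, with no base 0. Capitals mark a match to the MEF2 consensus, CTA and TAG with 4 bases of A or T between them, which is its own reverse complement in form, so that 1 search covers both strands. Hdac9 has a distal and an internal start site and Mef2c has 3, of which the first and the last are shown.
Mef2a, chr7:67372829-67373108, minus strand: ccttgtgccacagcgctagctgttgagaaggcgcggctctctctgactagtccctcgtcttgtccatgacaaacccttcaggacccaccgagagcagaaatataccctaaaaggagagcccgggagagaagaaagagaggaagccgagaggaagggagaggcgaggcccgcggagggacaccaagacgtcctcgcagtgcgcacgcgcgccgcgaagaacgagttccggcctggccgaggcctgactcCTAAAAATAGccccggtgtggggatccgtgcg
Hdac5, chr11:102230143-102230422, minus strand: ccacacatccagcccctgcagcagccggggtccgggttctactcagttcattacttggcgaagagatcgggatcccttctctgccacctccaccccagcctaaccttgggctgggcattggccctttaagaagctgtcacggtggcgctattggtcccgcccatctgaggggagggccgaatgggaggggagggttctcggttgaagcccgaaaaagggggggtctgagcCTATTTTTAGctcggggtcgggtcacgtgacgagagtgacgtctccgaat
Mef2c last start site, chr13:83573357-83573636, plus strand: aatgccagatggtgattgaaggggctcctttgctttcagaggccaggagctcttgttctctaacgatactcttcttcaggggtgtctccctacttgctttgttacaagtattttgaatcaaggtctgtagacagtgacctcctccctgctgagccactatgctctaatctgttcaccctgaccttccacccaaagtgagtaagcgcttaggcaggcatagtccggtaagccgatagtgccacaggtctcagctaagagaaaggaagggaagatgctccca
Mef2c first start site, chr13:83503784-83504063, plus strand: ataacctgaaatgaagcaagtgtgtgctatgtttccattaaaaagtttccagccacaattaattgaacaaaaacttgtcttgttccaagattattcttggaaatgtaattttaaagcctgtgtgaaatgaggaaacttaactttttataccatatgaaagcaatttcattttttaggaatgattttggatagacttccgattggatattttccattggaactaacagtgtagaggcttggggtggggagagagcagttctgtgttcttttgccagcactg
Hdac9 internal start site, chr12:34528860-34529139, minus strand: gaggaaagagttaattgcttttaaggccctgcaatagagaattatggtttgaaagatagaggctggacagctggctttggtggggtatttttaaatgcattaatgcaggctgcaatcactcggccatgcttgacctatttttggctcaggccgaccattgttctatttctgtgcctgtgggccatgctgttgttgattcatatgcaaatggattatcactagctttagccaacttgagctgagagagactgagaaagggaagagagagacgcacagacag
Hdac9 distal start site, chr12:34917066-34917345, minus strand: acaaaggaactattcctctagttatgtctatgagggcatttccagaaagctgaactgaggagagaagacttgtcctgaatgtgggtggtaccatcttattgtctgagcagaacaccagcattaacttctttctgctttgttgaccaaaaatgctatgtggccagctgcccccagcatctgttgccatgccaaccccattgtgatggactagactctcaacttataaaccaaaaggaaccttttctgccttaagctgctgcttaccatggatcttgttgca

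The MEF2 consensus was found in the promoters of a MEF2 factor and of a class IIa deacetylase, and in no other promoter of the 8 genes. In windows of 300 bases it was present in 2 of the 14 RefSeq promoters of these genes, beside 104 of the 21263 promoters of protein-coding genes (0.489%). A relaxed form, with C or T as the first base and A or G as the last, was present in 2 of the 14 as well. Over all promoters that form was present in 583 of 21263 (2.74%). In Mef2a the match CTAAAAATAG lay at bases -2 to 8 (chr7:67372851-67372860), and in Hdac5 the match CTATTTTTAG lay at bases -20 to -11 (chr11:102230183-102230192). Each is the reverse complement of the other. A match is a description of the letters, not a bound site. The promoters also differed in base composition, with a GC content of 61.4% at Mef2a and 60.4% at Hdac5, 49.6% and 35.4% at the last and first start sites of Mef2c, and 44.6% at both start sites of Hdac9, beside a median of 56.1% over all promoters. CpG dinucleotides numbered 24 at Mef2a and 16 at Hdac5, beside a median of 12 over all promoters. They numbered 4 and 1 at the last and first start sites of Mef2c and 3 and 0 at the internal and distal start sites of Hdac9.

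A peak lay within 1 kb of the start site in all 5 libraries other than HOM replicate 2 at 5 of the 14 start sites, those of Mef2a, Mef2d, Hdac4 and Hdac5 and the last of Mef2c. This held for 1053 of 21263 start sites of protein-coding genes (4.95%), and library by library the share of start sites with a peak within 1 kb was 12, 32.4 and 42.6% in WT against 23.1, 0.343 and 8.21% in HOM. At 4 of the 5, the start site base itself was under no peak in any library, as at 39.7% of those 1053, and the peaks lay beside it. For Mef2a, Mef2d and Hdac4 this start site lies inside the annotated gene body, away from its outer 5′ end. That end of Mef2d (88141941) was under a peak in WT replicates 2 and 3 and HOM replicate 1. Those of Mef2a and Hdac4 were under none. At Hdac5 the nearest peaks began 112, 164 and 169 bp upstream in WT replicates 1, 2 and 3 against 150 and 200 bp upstream in HOM replicates 1 and 3. The last start site of Mef2c differed, with its base under a peak in all 5 libraries, which held for 28 of the 1053 (2.66%). Mef2b had no peak within 1 kb of its start site in any library, and neither had the distal start site of Hdac9.

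Among the MEF2 factors, Mef2d, which is broadly expressed and acts in adult cardiac stress, had the most extensive marking for its length. The gene spans chr3:88141941-88172091 on the plus strand, and its 70.2 kb window held 18, 39 and 39 peaks in WT replicates 1, 2 and 3 against 34, 1 and 19 in HOM replicates 1, 2 and 3. These covered 7.19, 34.8 and 48.8% of the window in the WT libraries and 21.2, 0.0855 and 7.67% in the HOM libraries. The genotypes overlapped, with HOM replicate 3 next to WT replicate 1. Among all protein-coding genes these shares stood at percentiles 99.5, 99.8 and 99.9 in WT against 99.8, 98.1 and 99.7 in HOM. The gene body alone was covered to 52.7% in WT replicate 2 and 67.6% in WT replicate 3. Peaks lay on both sides of the start site at 88142372. Regions, formed by merging touching peaks of the 6 libraries, were called in 5 or 6 libraries at 7 places, among them chr3:88138479-88142281 in all 6, which ended 91 bp before the start site, and chr3:88142725-88150218 in 5, which began 353 bp after it. The leading peak, the one with the highest fold enrichment in the authors' list, ranked 1094th of 21340, 600th of 72362 and 621st of 106605 in the WT libraries. Fold values repeat in these lists, so that 13 to 7967 peaks shared the fold of a leading peak. A rank gives the place of the first of them, and a window with more peaks has more chances of a high one. Where several peaks of 1 gene's window shared the top fold, each is named. In the HOM libraries it ranked 1258th of 48102, 769th of 1462 and 544th of 15184. It lay at 88140285-88140865 (581 bp) in WT replicate 1, 88148025-88150150 (2126 bp) in WT replicate 2 and 88141151-88141210 (60 bp) in HOM replicate 2. In HOM replicate 1, 5 peaks shared the top fold, 2 of them before the gene (88136997-88137900 and 88137998-88138365) and 3 on it (88144319-88145639, 88149028-88149639 and 88165766-88167116). In WT replicate 3 and HOM replicate 3 it lay downstream of the gene, at 88177837-88178530 (694 bp) and 88177850-88178054 (205 bp). Ranks from lists of different lengths show no change between genotypes.

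Mef2c, which heart development requires, carried its peaks in the middle of the gene rather than at its first start site. The gene spans chr13:83504017-83667079 on the plus strand, and its 203 kb window held 11, 37 and 45 peaks in the WT libraries and 25, 2 and 9 in the HOM libraries. They covered 1.97, 9.87 and 14.1% of the window in WT against 4.85, 0.0561 and 0.965% in HOM, so that the genotypes overlapped. The segment chr13:83523532-83605368, 40.3% of the window, was drawn after the peaks were seen. It runs from the first to the last region on the gene called in 5 or 6 libraries, a choice that raises its share. It held 100, 97.8 and 94.6% of the covered bases in WT replicates 1, 2 and 3 against 100% in each HOM library. At the first start site (83504034), whose promoter has 1 CpG, a peak lay within 1 kb in WT replicates 2 and 3 alone, and the nearest peak in the other 4 libraries was 19831 to 21267 bp downstream. The second start site (83523656) had a peak within 1 kb in 5 libraries, WT replicate 1 being the exception with its nearest peak at 1645 bp. The last (83573607) lay inside the leading peak of WT replicate 1 (83573572-83574915, 1344 bp), WT replicate 2 (83571866-83575215, 3350 bp), WT replicate 3 (83571292-83575254, 3963 bp) and HOM replicate 1 (83573184-83575215, 2032 bp). In WT replicate 3 a peak at 83602747-83605266, away from the start site, had the same fold. These ranked 488th, 117th and 1021st in the WT lists and 441st in the HOM list, within the first 2.29, 0.162, 0.958 and 0.917% of them. In HOM replicate 3 the leading peak was at 83525414-83525678 (265 bp, 544th, 3.58% from the top) and in HOM replicate 2 at 83604820-83604876 (57 bp, 769th of 1462). The only regions of the 8 genes called in all 6 libraries other than the one at Mef2d were chr13:83523532-83526607 and chr13:83602747-83605368, both on Mef2c, and the latter also overlaps the annotated gene Gm52043. The 3 peaks of HOM replicate 2 in the 8 windows, of 57, 57 and 60 bp, lay in these 3 regions.

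**Figure D2:**
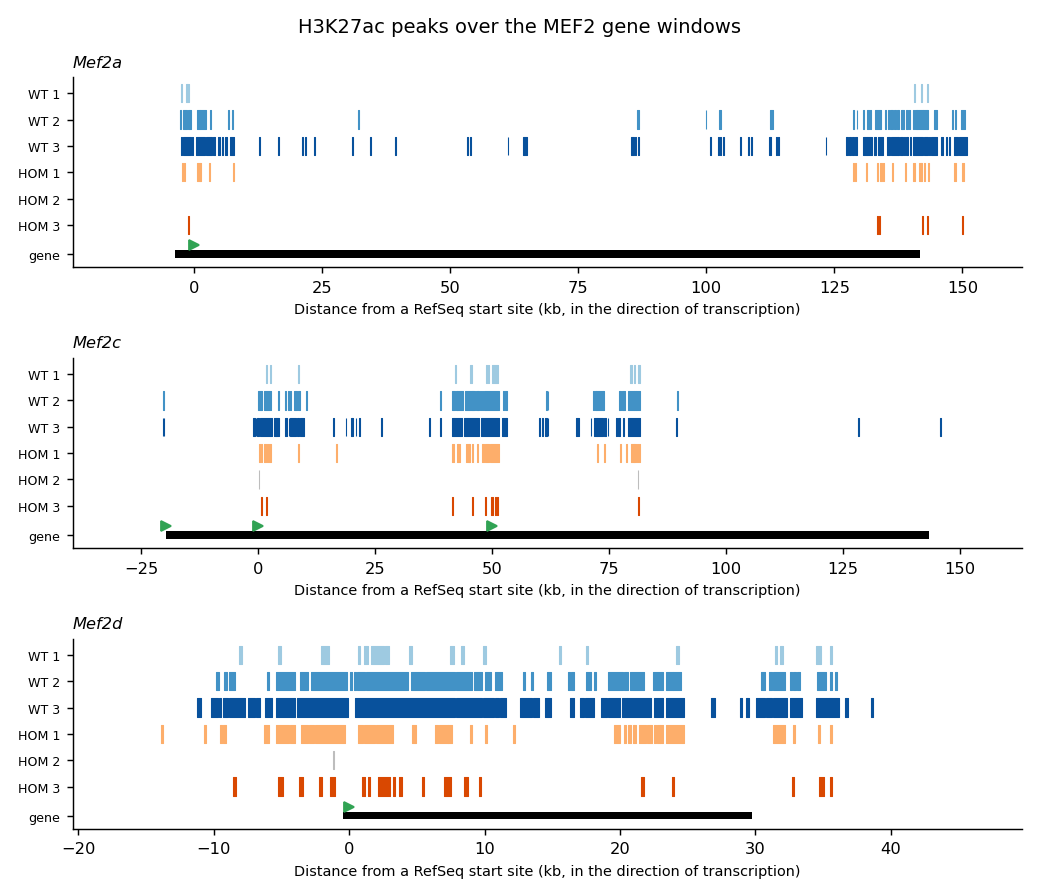
Peaks of each library drawn to scale along the windows of Mef2a, Mef2c and Mef2d, with distance from a start site in kb on the x axis, 1 line per library, the gene as a black bar and start sites as arrowheads. Peaks lie on both sides of the start site of Mef2d, gather in the middle of Mef2c and sit mostly at the ends of Mef2a; the narrowest peaks are drawn at a minimum line width.

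Mef2a, the other main MEF2 gene of the adult heart, was marked at its 2 ends in every library but HOM replicate 2. The gene spans chr7:67231163-67376456 on the minus strand, and its 185 kb window held 6, 37 and 62 peaks in WT against 21, 0 and 6 in HOM. They covered 0.753, 7.98 and 15.9% of the window in WT against 2.85, 0 and 0.74% in HOM, with HOM replicate 3 beside WT replicate 1. The region chr7:67373300-67374891 began 442 bp upstream of the start site and was called in 5 libraries. At the other end of the gene, chr7:67230555-67232593 and chr7:67229521-67230490 were called in the same number of libraries, the latter just beyond the annotated gene. The peaks of Mef2a were of middling rank. The leading one stood at 35.2, 8.54 and 5.37% from the top of the WT lists (7515th, 6177th and 5722nd) and at 11.3 and 17.1% in HOM replicates 1 and 3 (5459th and 2596th). It lay on the start site side in WT replicate 1 (67373725-67374107, 383 bp) and WT replicate 3 (67370540-67372405, 1866 bp). It lay toward the other end in HOM replicate 1 (67239314-67239600, 287 bp). In WT replicate 2 the peaks 67229877-67230490 (614 bp) and 67230568-67231714 shared the top fold. In HOM replicate 3 the peaks 67230631-67230826 (196 bp) and 67238894-67239237 shared it, the former overlapping a top peak of WT replicate 2.

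Mef2b, best known from lymphoid cells, had no peak on the gene in any library. The gene spans chr8:70152761-70167488 on the plus strand, and its 54.7 kb window held 0, 7 and 10 peaks in WT against 2, 0 and 0 in HOM. Those peaks covered 0, 3.75 and 4.67% of the window in WT against 1.3, 0 and 0% in HOM. They lay in the flanks, 12755 bp or more from the start site, and those on genes lay on Rfxank, Borcs8, Gm45929 or Tmem161a. The leading peak was at 70138796-70139195 (400 bp, 26698th) in WT replicate 2, with the same fold at 70139275-70139502, 70172427-70172831 (405 bp, 6800th) in WT replicate 3 and 70138798-70139175 (378 bp, 10929th) in HOM replicate 1. Mef2b is therefore described by its flanks alone, which belong as much to its neighbours.

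Among the deacetylases, Hdac4, a calcium-responsive repressor of MEF2, had the most peaks. The gene spans chr1:91928779-92195702 on the minus strand, and its 307 kb window held 50, 89 and 117 peaks in WT against 67, 0 and 24 in HOM. They covered 4.77, 15.3 and 27.5% of the window in WT against 8.63, 0 and 2.23% in HOM. WT replicate 3 was highest, and HOM replicate 1 lay between WT replicates 1 and 2. The marking was intragenic. The segment chr1:92027219-92131005, drawn by the same rule as that of Mef2c, was 33.8% of the window and ended 49336 bp from the start site at 92180341. That start site lies inside the annotated gene, which runs on to 92195702. The segment held 90.2, 77.5 and 73.5% of the covered bases in WT against 82.5 and 85.3% in HOM replicates 1 and 3. Hdac4 had 8 regions called in 5 libraries, 7 of them on the gene, of which the widest was chr1:92106346-92118467 at 12122 bp. Its leading peak ranked 488th, 1528th and 85th in the WT lists and 1258th and 544th in HOM replicates 1 and 3, within the first 3.58% of each. In WT replicate 3 this was a peak of 7811 bp at 92097144-92104954, whose fold 13 peaks of that list shared. In WT replicates 1 and 2 it was at 92112381-92113012 (632 bp) and 92110409-92114123 (3715 bp), and in HOM replicates 1 and 3 at 92083000-92083994 (995 bp) and 92083410-92083691 (282 bp). Each WT list also had peaks over the place of the HOM leading peaks, at 92083452-92084036 in WT replicate 1, 92082198-92084544 in WT replicate 2 and 92081242-92084744 in WT replicate 3.

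Hdac9, which gives both full-length and truncated repressors, was marked over a short part of a very long gene. The gene spans chr12:34047580-34917095 on the minus strand, and its 910 kb window held 13, 61 and 67 peaks in WT against 46, 0 and 12 in HOM, all on the gene. They covered 0.436, 3.35 and 5.34% of the window in WT against 1.68, 0 and 0.375% in HOM. The 100 kb downstream of the internal start site (chr12:34428890-34528889), 11% of the window, was marked off after the peaks were seen. It held 100, 93.6 and 96.2% of the covered bases in WT replicates 1, 2 and 3 against 99.3 and 100% in HOM replicates 1 and 3. The 388 kb between the 2 start sites held 0, 6 and 4 peaks in WT against 1, 0 and 0 in HOM. No peak lay within 121817 bp of the distal start site. At the internal start site a peak lay within 1 kb in 4 libraries, and the start site base was under a peak in WT replicate 3 and HOM replicate 1. The leading peak ranked 707th, 1128th and 85th in WT against 1258th and 544th in HOM replicates 1 and 3. It was 582, 339 and 5461 bp wide in WT (34451837-34452418, 34516981-34517319 and 34448976-34454436) and 523 and 790 bp in HOM (34518312-34518834 and 34499140-34499929). A low percent of this window thus went with a leading peak near the top of its list, the best of many peaks. The median peak of the window stood at 35.2, 36.9 and 45.6% from the top in WT. In HOM replicates 1 and 3 it stood at 45.1 and 38.4%. Within the 100 kb segment 28.5% and 46.7% of the bases were covered in WT replicates 2 and 3 and 15.1% in HOM replicate 1.

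Hdac5, which signals of pathological growth drive out of the cardiomyocyte nucleus, had a compact marked block inside the gene and a peak at its promoter. The gene spans chr11:102195747-102230172 on the minus strand, and its 74.4 kb window held 8, 16 and 25 peaks in WT against 14, 0 and 7 in HOM. They covered 2.82, 12.1 and 17.3% in WT against 5.44, 0 and 2.35% in HOM. The block chr11:102215075-102221394, drawn by the same rule as the segment of Mef2c, was 8.49% of the window and at least 8778 bp from the start site. It held 76.8, 58.3 and 44.6% of the covered bases in WT against 62.7 and 61.7% in HOM replicates 1 and 3. The leading peak of all 5 libraries lay in this block, and so did the peaks that shared its fold, at 102216715-102218570 in WT replicate 3 and 102217850-102218299 in HOM replicate 1. It was at 102217622-102218147 (526 bp), 102218894-102220784 (1891 bp) and 102215724-102216648 (925 bp) in WT and ranked 1094th, 1528th and 2816th. It was at 102216915-102217383 (469 bp, 3807th) in HOM replicate 1 and 102216966-102217340 (375 bp, 1471st) in HOM replicate 3. The promoter region, chr11:102230284-102231056, began 112 bp upstream of the start site and overlapped the far end of the printed sequence. Its best peak stood at 93.5, 28.6 and 5.37% from the top in WT and at 11.3 and 17.1% in HOM replicates 1 and 3, below the leading peak of the block in each list.

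Hdac7, which in mice is required in endothelial cells, had 2 recurrent regions, of which 1 lay on the gene. The gene spans chr15:97792661-97844502 on the minus strand, and its 91.8 kb window held 4, 18 and 18 peaks in WT against 8, 0 and 4 in HOM. They covered 1.12, 9.26 and 11.1% in WT against 3.28, 0 and 0.985% in HOM. The gene body was covered to 1.64, 15.4 and 18.5% in WT against 5.2, 0 and 1.42% in HOM. The mean over all protein-coding genes was 0.56, 2.81 and 5.17% in WT against 1.52, 0.0102 and 0.365% in HOM. For endothelial marker genes the mean was at most 0.88%, and the highest single value was 3.17%, for Pecam1 in WT replicate 3. The part of other cells in the Hdac7 peaks was not tested. The recurrent region chr15:97821370-97825444 lay 6051 bp or more from any of its 4 start sites. It held the leading peak of WT replicate 1 (97822065-97822321, 257 bp, 1819th), WT replicate 2 (97821410-97822570, 1161 bp, 244th), WT replicate 3 (97822558-97824740, 2183 bp, 8052nd) and HOM replicate 3 (97821961-97822192, 232 bp, 882nd). In HOM replicate 1 the leading peak was at 97829185-97829485 (301 bp, 7733rd). A peak within 1 kb of a start site was called in 3 libraries at 97814863, in WT replicate 2 alone at 97831495 and 97831767, and in none at 97844502. The other recurrent region of the window, chr15:97785002-97785500, lay on the neighbouring gene Slc48a1 and in the lower part of every list.

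**Figure D3:**
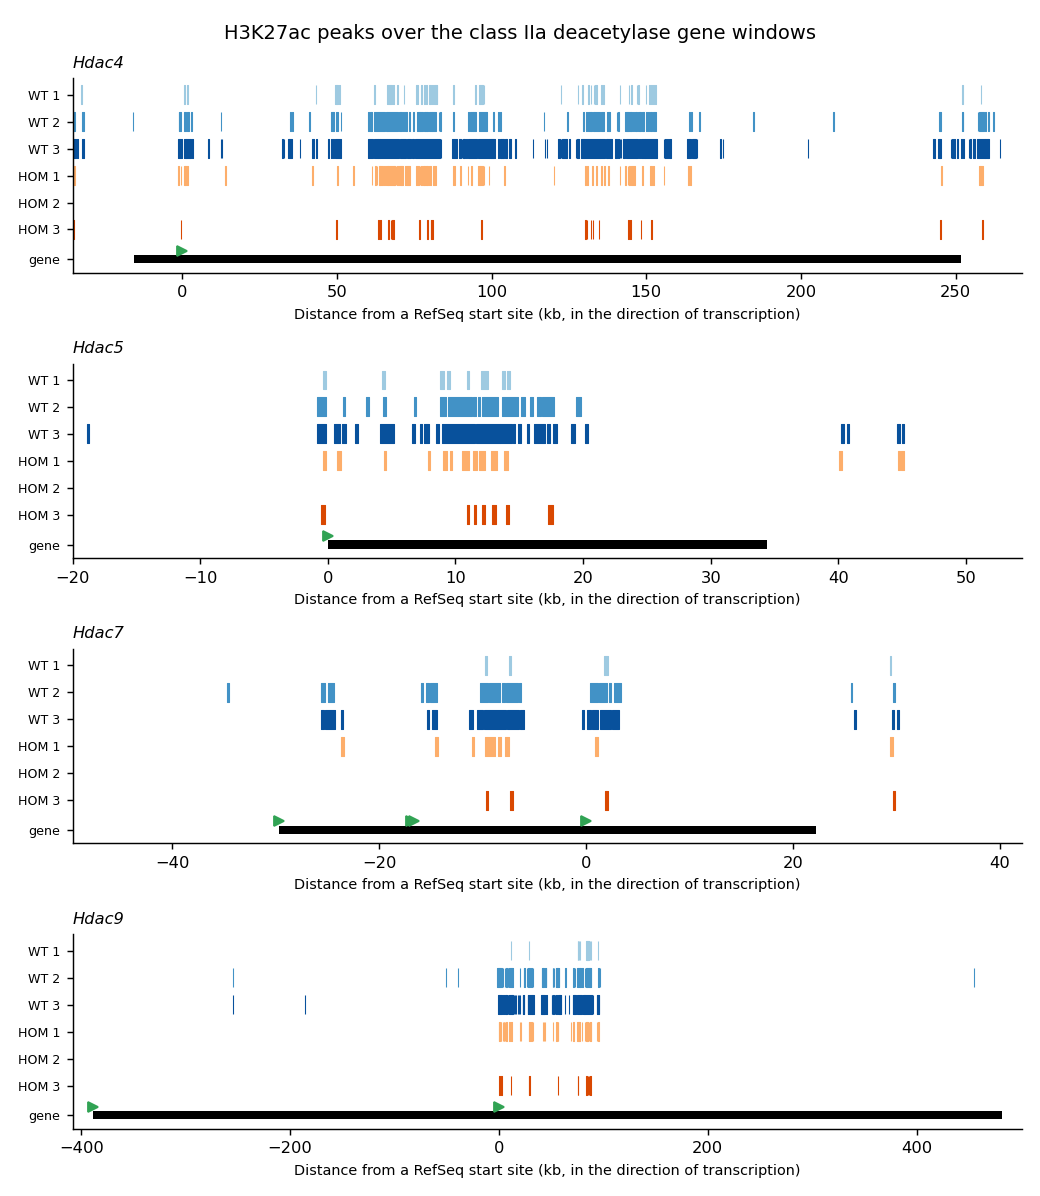
Peaks of each library drawn to scale along the windows of Hdac4, Hdac5, Hdac7 and Hdac9, with distance from a start site in kb on the x axis, 1 line per library, the gene as a black bar and start sites as arrowheads. In Hdac9 nearly all peaks lie in the 100 kb downstream of the internal start site, and the 388 kb up to the distal one holds at most 6 in a library; the narrowest peaks are drawn at a minimum line width.

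**Figure D4:**
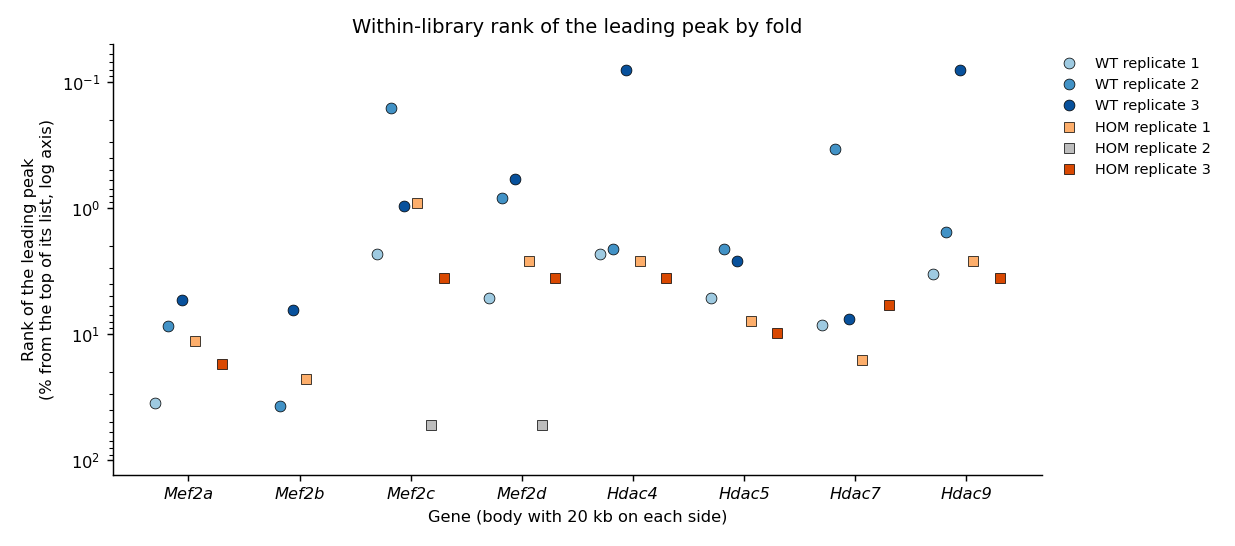
Rank of the leading peak of each gene by the authors' fold enrichment, as percent from the top of its own list, on an inverted log axis, with circles for WT and squares for HOM. The leading peaks of Mef2c, Mef2d, Hdac4 and Hdac9 lay within the first 5.13% of every list other than that of HOM replicate 2. There Mef2c and Mef2d stood at 52.6%. Ranks are not compared between lists of different lengths, and a window with more peaks has more chances of a high rank.

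The 8 windows held 1098 peaks in 388 merged regions. Of these, 32 were called in 5 or 6 libraries, and over the whole genome 5.13% of 114809 merged regions were. Another 221 were called in a single library, for which no genome-wide share was computed. All 3 WT libraries shared 48 regions, of which HOM replicate 1 also had 41. Genome wide the 3 WT libraries shared 9.72% of regions, and HOM replicate 1 had 87.6% of those. Regions called in all WT libraries and in no HOM library numbered 5 of 388, beside 1.03% genome wide. They were 1 on Mef2d (chr3:88159768-88160593) and 4 in the Hdac4 window (chr1:91927785-91928273, chr1:92032418-92033582, chr1:92050460-92051359 and chr1:92212074-92212947). Regions called only in HOM libraries numbered 12, beside 3.47% genome wide. None of the 388 was called in all HOM and no WT library, which held for 2 regions in the genome (0.00174%). A region is easily missed in a list as short as that of HOM replicate 2, so these counts were not tested.

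Whether the deletion of Nppa and Nppb went with a change at these genes was asked with the covered bases of each window per Mb covered genome wide in the same library, which takes out part of the difference in list length. None of the 8 genes had genotypes that did not overlap on this measure. Over the 14818 protein-coding genes with a peak in any library, HOM lay wholly above WT for 0.256% and wholly below it for 9.27%. An exact permutation test (two-sided) of 3 libraries against 3 cannot go below 0.1, so no gene could pass 0.05, and the smallest Benjamini-Hochberg adjusted p over all genes was 0.806. The WT mean exceeded the HOM mean for 7 of the 8 genes, beside 87.1% of the 14818, and HOM replicate 2, with no peak at 6 of the 8, enters every HOM mean.

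Mef2d was the exception in the sign of the difference. Its window held 754, 771 and 614 bp per Mb in WT replicates 1, 2 and 3 against 866, 203 and 1185 in HOM replicates 1, 2 and 3. HOM replicates 1 and 3 lay above every WT library and HOM replicate 2 below. The mean was 713 ± 86 for WT against 751 ± 501 for HOM (SD, n = 3 each), which differ by 38.1 with a two-sided exact permutation p of 0.8 (adjusted p = 1). Without HOM replicate 2 the HOM mean was 1026, the groups did not overlap and the exact p was 0.1, the smallest possible; HOM then lay above WT for 4.48% of all genes and below it for 9.61%. With the 5 lists limited to their 15184 strongest peaks, the value was 673, 974 and 914 in WT against 1128 and 1185 in HOM replicates 1 and 3. That is a difference of 303 (exact p 0.1), with HOM above WT for 6.51% of 9463 genes. On the gene body alone, without the flanks, the difference over 6 libraries was -54.4.

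Mef2c and Hdac4 had overlapping genotypes with the full lists, both over 6 libraries and over 5, and lay wholly below WT in HOM when the 5 lists were made equally long. Mef2c had 597, 634 and 516 bp per Mb in WT against 572, 386 and 432 in HOM, means of 582 ± 60.4 and 463 ± 97.2, with an exact p of 0.2 (adjusted p = 0.806). HOM replicate 1 lay within the WT range. Without HOM replicate 2 the difference (HOM minus WT) was -80.4 (exact p 0.4) and the groups overlapped. HOM lay wholly below WT without HOM replicate 1, where 23.8% of all genes tested did not overlap, and without WT replicate 3, where 12.2% did not. With all 6 lists limited to 1462 peaks HOM was also wholly lower, by a difference of -944 (exact p 0.1), beside 4.07% of genes that did not overlap. At 15184 peaks per list it had 691, 964 and 630 in WT against 605 and 432 in HOM replicates 1 and 3, with HOM below WT (exact p 0.2). Counted as peak number per 10000 peaks, the Mef2c difference turned to 3.44, with HOM above WT (exact p 0.1), beside 8.79% that did not overlap. Hdac4 had 2189, 1481 and 1515 bp per Mb in WT against 1540, 0 and 1504 in HOM, means of 1728 ± 399 and 1015 ± 879 (exact p 0.5), a difference of -714 that was -206 without HOM replicate 2 (exact p 0.9). At 15184 peaks it had 2432, 1719 and 2053 in WT against 1708 and 1504 in HOM, with HOM below WT (means 1606 and 2068, exact p 0.2), where that held for 8.15% of all genes.

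The remaining genes had overlapping genotypes over 6 libraries, over 5, and at equal peak number. Mef2a had 208, 468 and 529 bp per Mb in WT against 307, 0 and 302 in HOM (exact p 0.3), and without HOM replicate 2 the difference was -97.4 (exact p 0.4). Hdac5 had 314, 286 and 231 in WT against 235, 0 and 385 in HOM (exact p 0.8), with a difference of 33.4 without HOM replicate 2 (exact p 0.6). HOM replicate 3 was the highest of the 6 for Hdac5, and WT replicate 3 the highest for Mef2a. Hdac7 had 153, 269 and 183 in WT against 175, 0 and 199 in HOM (exact p 0.5), with -14.4 without that library (exact p 0.9). Hdac9 had 593, 964 and 872 in WT against 886, 0 and 750 in HOM (exact p 0.6), with 8.39 without it (exact p 0.9). Mef2b had 0, 64.8 and 45.9 in WT against 41.5, 0 and 0 in HOM (exact p 0.4), from its flanks, with -16.2 without it (exact p 0.6). Apart from HOM replicate 2, the HOM values of Hdac7 and Hdac9 lay inside the WT range. Without WT replicate 1, the lowest WT library for both, Mef2a and Mef2b lay wholly below WT in HOM, where 39.1% of all genes tested had genotypes that did not overlap.

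**Figure D5:**
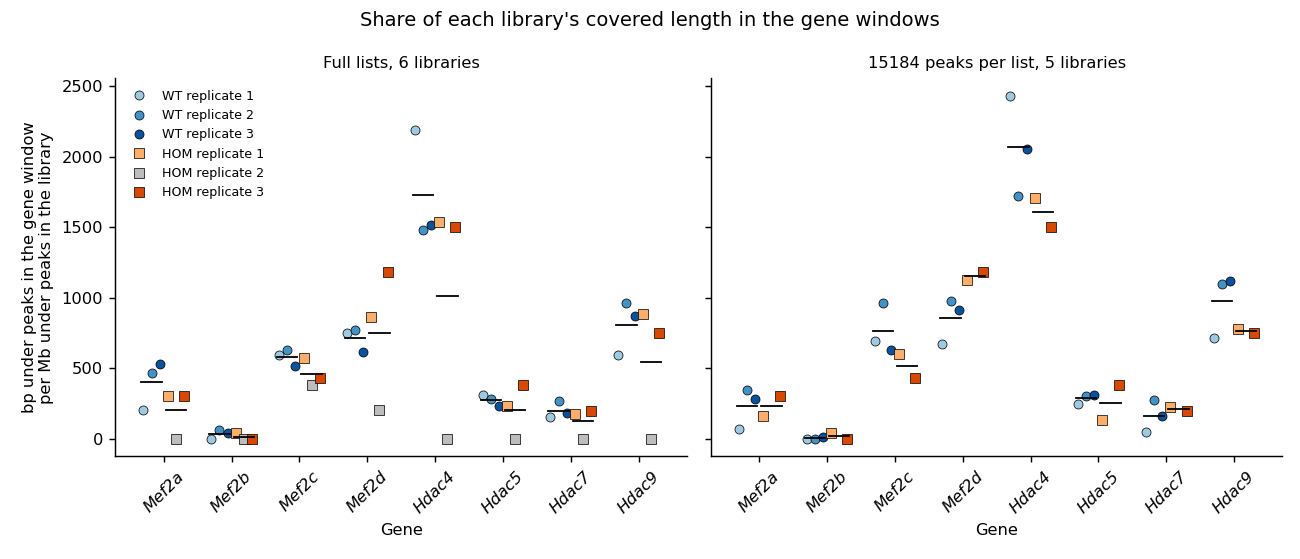
Covered bases of each window per Mb covered genome wide, by library, with circles for WT, squares for HOM and short bars for the mean of each genotype, on a linear axis, from the full lists of 6 libraries on the left and from 15184 peaks per list in 5 libraries on the right. At Mef2d, HOM replicates 1 and 3 lay above all WT libraries in both panels (866 and 1185 against 614 to 771 on the left), and at Mef2c and Hdac4 they lay below on the right.

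The wider pathway was read from a list of 39 genes: kinases and scaffolds that act on the deacetylases, 14-3-3 genes, corepressor partners, coactivators and partners of MEF2, and other deacetylases. Genotypes did not overlap for 3 of the 39, each lower in HOM and each with an exact permutation p of 0.1 and an adjusted p of 0.806, beside the 9.27% lower in HOM over all genes; HOM was higher for 0. Ywhah, a 14-3-3 gene, had 40.7, 37.3 and 24.8 bp per Mb in WT and no peak in any HOM library. Crebbp, an acetyltransferase gene, had 29, 12.7 and 48.3 in WT and no peak in HOM. Ywhah and Crebbp thus rested on 1 peak each in WT replicate 1. Neither had groups apart on the gene body without flanks or with the 5 lists at equal peak number. Without WT replicate 1 the count was 14 of 39, beside 39.1% of all genes.

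By extent, the pathway ran from genes covered as widely as Hdac4 to genes with no peak. The highest mean percent covered in WT was that of Myocd, a cardiac and smooth muscle coactivator, at 27 ± 19.3 (SD, n = 3), then Ywhag, a 14-3-3 gene, at 20.4 ± 14.7, and Camk2d, the main CaMKII gene of the heart, at 17.5 ± 13.5. The lowest were Hdac8 at 0.047 and Hdac6 and Hdac11, with no peak in any library. The windows of the other deacetylases held a peak for 0, 4 and 5 of 7 genes in WT against 3, 0 and 0 in HOM, where over all genes the share was 31.7, 57.4 and 66.1% in WT against 47.1, 3.14 and 25.2% in HOM. The pathway's median of the WT mean was 2.83% covered, beside 8.43% for the 8 genes.

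The genes most like Mef2d and Hdac4, the members with the highest WT means, were sought by the mean absolute difference in percentile of percent covered over the 5 libraries other than HOM replicate 2. For Mef2d these were Des (0.0366 percentile points), Hadhb (0.0429) and Rrad (0.0576). Des was covered to 7, 31 and 48.8% in WT against 20.6 and 7.68% in HOM replicates 1 and 3, close to Mef2d in each. For Hdac4 they were Acsl1 (0.236), Plekhf1 (0.242) and Tssc4 (0.265).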

How the data were processed

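CUT&RUN for H3K27ac gave 1 peak list per library, 3 per genotype, and each library's title gave its group and replicate. BWA, MACS2 and mm10 are named in the submitters' processing notes. Their versions are not given in the sources used here. Each list was deposited per library, with no pooling of replicates. The deposited columns are those of a narrow peak file: a score, a fold enrichment (a ratio to the local background), −log10 p-values, −log10 q-values and the summit offset, all set by the authors' peak caller. The fold is the authors' own and served only to rank peaks within a list; the −log10 q served as a filter in 1 alternative. The lists state no read counts, so depth and the precision it gives are unknown and no counting interval was made.

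Gene bodies and start sites came from RefSeq tables of GRCm38.p6; all 8 members matched by symbol, and 14 start sites with them. No exon annotation was used, so positions are given relative to gene bodies and start sites. Positions are 1-based. The members and the pathway and marker lists were chosen with earlier results of these data known. The text names all 8 members, the pathway genes whose genotypes did not overlap with the 3 highest and the 3 lowest of the others by WT percent covered, the 3 genes most like each of the 2 members with the highest WT mean, neighbours under a member's peaks, and markers as examples. A gene that this rule names is not reported here. Covered bases per Mb were tested for every protein-coding gene with a two-sided exact permutation test over the 20 assignments of libraries, with Benjamini-Hochberg adjustment over 14818 genes. The coverage calculation, tested on 200 simulated windows, gave 0 mismatches. The tools were matplotlib 3.10.9, pandas 2.3.3, numpy 2.4.6 and Python 3.11.15. Alternatives were other list lengths, a q filter, undivided lengths, peak numbers, other flanks, each library left out and the replicate numbers as a block.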

Additional observations from a re-analysis of the deposited data

How the results depend on the processing

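Against 15 alternatives for each of the 8 genes, the difference between genotypes (HOM minus WT) kept its sign in 103 cases, turned in 14 and became 0 in 3. Those at 0 were Mef2a and Mef2b with all lists limited to 1462 peaks and Mef2b with no flank. In bp per Mb covered, leaving out 1 library at a time gave -159 to 33.4 for Hdac5 and -435 to 8.39 for Hdac9, both turned without HOM replicate 2, and -179 to 312 for Mef2d, turned without WT replicate 3 or HOM replicates 1 or 3. With 5 libraries at equal peak number, turned values were 1.57 for Mef2a, 16.6 for Mef2b and 48.9 for Hdac7. With the stronger 50% of each list by q they were 3.54 for Mef2b and -61.4 for Mef2d. For Mef2d they were -125 with lists limited to the shortest and -54.4 with no flank, and covered length not divided by the list gave -14432 bp. Mef2c turned to 3.44 peaks per 10000 peaks. The cause was not tested.

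The count of the 8 genes whose genotypes did not overlap was 0 and became 1 without HOM replicate 2 (beside 14.1% of all genes), 1 with lists limited to the shortest (4.07%), 3 with 5 libraries at equal peak number (14.7%), 1 by peak number (8.79%) and 0 to 2 with 1 library left out (12.2 to 39.1%). With the full lists of 6 libraries that share was 9.53%. The pathway count of 3 became 5 without HOM replicate 2, 0 with lists limited to the shortest, 1 with no flank (7.31%) and 3 to 14 with 1 library left out.

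Deviations from the group means correlated at -0.19, -0.19 and -0.03 for libraries of the same replicate number over 7301 genes. For different numbers the correlations ran from -0.11 to 0.18. With 3 libraries per genotype the deviations depend on each other, so these values cannot show whether the numbers pair the libraries. With the replicate block, 2 of the 8 genes (Mef2c and Hdac4) and 6 of the 39 pathway genes lay on 1 side in all pairs, beside 16.3% of all genes, where the smallest exact sign-flip p is 0.25. The lists limit all of this, since a library with few peaks shows only its strongest.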
